A study of Mus musculus with 9 samples.

Results

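The stretch of mouse chromosome 5 that joins the Shh gene to its limb enhancer was described by every peak that started between 28.7 and 29.75 Mb in build mm9, in all 5 peak lists of a chromatin immunoprecipitation and sequencing (ChIP-seq) series. The rule found 63 peaks of 243649 in all. Hoxa13 contributed 15 peaks in the E11.0 list, 43 in the E11.5 list and 5 in the E12.5 list, where E11.0 is embryonic day 11.0. Neither Hoxa11 list contributed any. Shh lies near 28.79 Mb, and the limb enhancer, called the ZRS, lies within Lmbr1 near 29.64 Mb. Both positions are given to 10 kb, so a distance from either is good to about 10 kb, and no peak was placed inside or outside the gene or the enhancer.

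All libraries came from wild-type (WT) mouse embryos of the ICR strain, and both proteins were precipitated with home-made antibodies. For Hoxa13 there is 1 library for each of 3 stages. The E11.0 library used the autopod, pooled from 11 pairs, the E11.5 library used whole limb buds of a litter, and the E12.5 library used limb bud. Hoxa11 was precipitated from E11.5 limb bud in replicates 1 and 2, and the labels do not say that these came from separate litters, so their spread may be technical. The E12.5 library followed an earlier procedure, and the tissue differs between E11.0 and the later stages, so stage, tissue and procedure cannot be told apart. The 4 input libraries were not analysed here.

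Shh encodes a secreted signal that a small group of cells at the posterior margin of the limb bud, the zone of polarizing activity, sends out to set the number and identity of the digits. In the limb its expression depends on the ZRS, which sits far away in an intron of Lmbr1, a gene that encodes a membrane protein and lends the enhancer a place without being its target. Loss of the ZRS removes Shh from the limb, and base changes within it cause extra digits. Hoxa13 and Hoxa11 are homeodomain proteins of the hand and foot and of the forearm and lower leg, and the posterior Hox genes as a group are needed for Shh expression in the limb. In RefSeq's table for GRCm38, used here for the order of genes only, Rbm33 precedes Shh, and 7 genes stand between Shh and Lmbr1. Of these, 1 codes for protein, Rnf32, which encodes a RING finger protein, 4 are long noncoding RNAs and 2 are pseudogenes. The next protein-coding gene after Lmbr1 is Nom1.

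Hoxa13 peaks lay mainly towards the ends of the interval, with a sparse stretch in the middle. In the 7 bins of 150 kb from 28.7 Mb on, the E11.5 list held 7, 7, 1, 2, 4, 10 and 12 peaks. The E11.0 list held 4, 2, 0, 0, 3, 3 and 3 in the same bins. The E12.5 list held 1, 0, 0, 0, 1, 2 and 1. In the E11.5 list the 2 bins nearest Lmbr1 were thus the fullest, and the bins from 29 to 29.3 Mb held 3 peaks in all lists together, each of E11.5. The longest step between neighbouring peak midpoints was 396 kb at E11.0 (from 28973554 to 29369002), 131 kb at E11.5 and 585 kb at E12.5 (from 28838385 to 29423549).

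**Figure D1:**
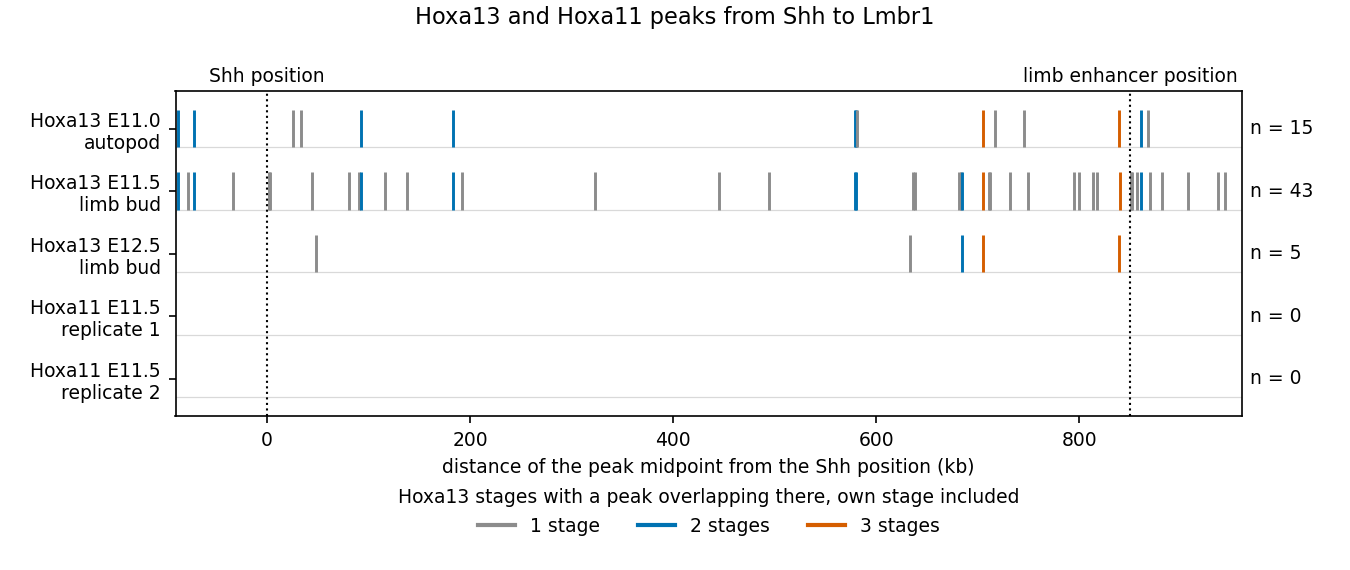
Each vertical line is the midpoint of 1 peak, placed by its distance in kb from the Shh position, with 1 row per library; colour gives the number of Hoxa13 stages with an overlapping peak, and the dotted lines mark the Shh and enhancer positions, which are 850 kb apart. Of the 63 peaks, 43 are in the E11.5 row, the Hoxa11 rows are empty, and the orange sites of all 3 stages lie towards the enhancer.

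Around the enhancer position, peaks of all 3 Hoxa13 stages were present. Within 25 kb of it lay 3 peaks of the E11.0 list, 6 of the E11.5 list and 1 of the E12.5 list. The E11.5 peaks from 29640092 to 29640391 and from 29641717 to 29641961 were the nearest, with midpoints 0.241 and 1.84 kb away and widths of 300 and 245 bp. A further E11.5 peak lay 7.03 kb away, from 29646899 to 29647161. None of these 3 peaks met a peak of another stage, beside 67.4% of the whole E11.5 list that met none. The nearest peak was 10.5 kb away at E11.0 (29650421 to 29650613, on the side away from Shh) and 10.6 kb away at E12.5 (29629252 to 29629506, on the side of Shh).

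The position used for the enhancer lay between recurrent sites, each about 10.6 kb from it. As that position is good to about 10 kb, whether the sites are equally far from the enhancer is not known. On the side of Shh, a site from 29629187 to 29629634 was held at every stage, by peaks 323, 436 and 255 bp wide in stage order. On the other side, a site from 29650361 to 29650853 was held at E11.0 (193 bp) and E11.5 (493 bp) but not at E12.5. The remaining peaks within 25 kb were 1 of E11.0, from 29657198 to 29657407, and 1 of E11.5, from 29658890 to 29659155, and these lay 1.48 kb apart without overlap. From the 2 E11.5 peaks nearest the enhancer position, the recurrent sites were 10.5 kb off towards Shh and 8.40 kb off on the other side. Both gaps exceed the 200 to 1000 bp to which the labels say the E11.0 and E11.5 chromatin was sheared.

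Fewer Hoxa13 peaks lay within 25 kb of the Shh position than within 25 kb of the enhancer position. How many a range of 25 or 50 kb holds elsewhere in the genome was not counted. Near Shh there were 2 peaks, both of the E11.5 list, from 28791903 to 28792123 and from 28792615 to 28792835. They lay 2.01 and 2.72 kb from the Shh position, each 221 bp wide, at the 14.4th percentile of widths of that list. The nearest E11.0 peak was 25.4 kb away (28815232 to 28815500), followed by one from 28823432 to 28823652, and neither overlapped a later peak. The nearest E12.5 peak was 48.3 kb away (28838251 to 28838385), with the nearest E11.5 peak 4.19 kb from it. Within 50 kb the E11.0 list had 2 peaks, the E11.5 list 4 and the E12.5 list 1, and no peak in that range was shared by any pair of stages. Over the whole lists, 37.9, 67.4 and 24.5% of peaks in stage order met no other stage.

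**Figure D2:**
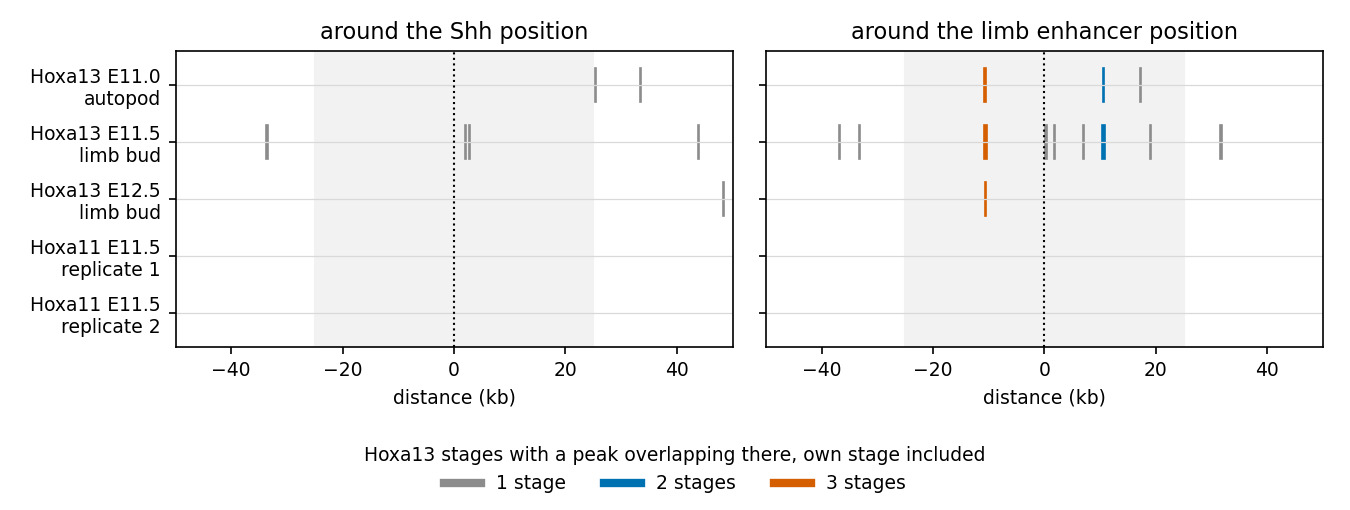
Peaks within 50 kb of the Shh position (left) and of the limb enhancer position (right) are drawn to scale by width against distance in kb, with 1 row per library and the range of 25 kb shaded; colour gives the number of Hoxa13 stages with an overlapping peak. Within 25 kb the enhancer position has 3, 6 and 1 Hoxa13 peaks in stage order, and the Shh position has 2, both at E11.5.

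Merging the overlapping peaks gave 51 sites, of which 10 were held at 2 or more stages. The 2 sites of all 3 stages were the one 10.6 kb from the enhancer position and another 145 kb from it towards Shh, from 29494904 to 29495441, where the peaks were, in stage order, 473, 416 and 231 bp wide. At the second of these the E11.0 and E12.5 peaks shared 210 bp, 44.4% of the E11.0 peak and 90.9% of the E12.5 peak. With a reciprocal overlap of 50% required this pair no longer met. At 231 bp the E12.5 peak was too narrow to cover 50% of the 473 bp peak, so the widths alone fixed that outcome. At the first site they shared 255 bp, 78.9% of the E11.0 peak and 100% of the E12.5 peak. A further 7 sites joined E11.0 and E11.5, and 1 joined E11.5 and E12.5, from 29473695 to 29474108. The sites of 1 stage were 33 at E11.5, 6 at E11.0 and 2 at E12.5. Each of the 2 sites that the earliest and the latest stage shared was also held at E11.5. The same held for most such peaks of the whole list: of 15637 E11.0 peaks that met E12.5, 13646 also met E11.5.

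Recurrent sites fell into 2 groups, on either side of the sparse stretch. The 4 nearest Shh joined E11.0 and E11.5: 28702230 to 28702758, 28717972 to 28718477, 28882157 to 28882387 and 28973334 to 28973623. The first pair lies on the far side of Shh, 87.5 and 71.8 kb from its position, and the second pair 92.3 and 183 kb from it towards Lmbr1. The other 6 lay between 29368899 and 29650853. The 395 kb between these groups held 4 peaks, all of the E11.5 list.

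Several sites came in tight groups. From 29368899 to 29370629, 3 peaks of E11.0 and 2 of E11.5 fell within 1.73 kb, with 2 overlapping sites and an E11.0 peak (29370348 to 29370629) that missed its E11.5 neighbour by 194 bp. From 29470914 to 29474108, 3 peaks of E11.5 and 1 of E12.5 fell within 3.195 kb, and the widest E11.5 peak of the interval was among them (29472600 to 29473116, 517 bp). From 29423549 to 29428085, 1 peak of E12.5 and 2 of E11.5 fell within 4.54 kb with no overlap, the E12.5 peak 1.93 kb from its neighbour. Nearer Shh, 1 peak of E11.0 and 2 of E11.5 fell within 1.62 kb, from 28880767 to 28882387. This grouping, with steps of up to 2 kb, was drawn after the positions were seen, and its frequency elsewhere in the genome was not counted.

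The share of peaks that recurred between E11.0 and E11.5 was close to that of the whole lists. Of the 15 E11.0 peaks, 9 met an E11.5 peak (60.0%, exact Clopper-Pearson 95% interval 32.3 to 83.7), beside 58.1% of all E11.0 peaks. Of the 43 E11.5 peaks, 9 met an E11.0 peak (20.9%, 10.0 to 36.0), beside 20.5% of the list. The 6 E11.0 peaks that met no other stage (40.0%, beside 37.9%) lay 0.194 to 18.3 kb from the nearest E11.5 peak. These intervals reflect only the number of peaks counted; variation among embryos is not in them.

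Recurrence with E12.5 was less frequent in number. Of the E11.0 peaks, 2 of 15 met E12.5 (13.3%, 1.66 to 40.5), beside 30.7% of the list. Of the E11.5 peaks, 3 of 43 met E12.5 (6.98%, 1.46 to 19.1), beside 21.7% of the list, and the list's share lay above that interval. Only 5 E12.5 peaks lay between the edges of the region, so few E11.0 or E11.5 peaks could meet one. Both low shares are therefore not separate from that low count. Peaks are not replicates, so the counting interval is no test. When every stage was cut to its 44699 widest peaks, the numbers were 3 of 14 (21.4%, 4.66 to 50.8) beside 42.0%, so the interval then took in the list's share. Of the 5 E12.5 peaks, 3 met E11.5 (beside 70.7%) and 2 met E11.0 (beside 35.6%), and with 5 peaks the exact interval of the first ran from 14.7 to 94.7%.

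Peaks of all 3 stages made up 2 of 15, 2 of 43 and 2 of 5 in stage order, beside 26.8, 9.60 and 30.8% of the whole lists. Peaks that met no other Hoxa13 list made up 33 of 43 at E11.5 (76.7%, 61.4 to 88.2), beside 67.4%, and 2 of 5 at E12.5, beside 24.5%. These shares rest on few peaks, and their difference from the lists was not tested.

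The interval held few called peaks at E12.5. It held 5 peaks there, or 4.76 per Mb, beside 16.3 per Mb over chromosome 5 and 16.6 per Mb over chromosomes 1 to 19, X and Y, a ratio of 0.287 to the genome (exact Poisson interval of the count 1.62 to 11.7 peaks, for counting error only). Of 2505 windows of the same length tiled over the genome, 11.4% held as few or fewer E12.5 peaks, and the median window held 16. On chromosome 5 the share was 15.2% of 145 windows. Windows without a peak in any list, as at the start of chromosome 5, were counted among them. Equal stretches just before and just after the interval held 8 and 12. The density at E12.5 was thus below that of the genome, of chromosome 5 and of either flank, with 1 library behind it.

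At the earlier stages the interval was nearer to the genome's density. The 15 peaks of E11.0 amounted to 14.3 per Mb, beside 18.9 in the genome (ratio 0.756), and 43.8% of windows held as few or fewer. The flanks before and after held 4 and 13. The 43 peaks of E11.5 amounted to 41.0 per Mb, beside 54.1 (ratio 0.757), and 36.6% of windows held as few or fewer, with 25 and 50 peaks in the flanks. The ratio to the genome was thus alike at both earlier stages and lower at E12.5, a difference that was not tested.

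Read depth per library is unknown and the lists differ in length, so stages were also set side by side as ratios of counts. For each peak of E11.5 the interval held 0.116 peaks of E12.5, beside 0.312 over the whole lists and a median of 0.288 over the 2429 windows with at least 10 E11.5 peaks. In 1.98% of those windows, 48 in number, the ratio was as low or lower. These ratios were added after the positions were seen, and this one reuses the low E12.5 count, so its rank is no separate result. For E11.0 the ratio was 0.349, beside 0.355 over the whole lists, and 62.8% of windows were as low or lower. With lists cut to 44699 by width, the interval held 15, 14 and 5 peaks in stage order. The procedure and the peak widths also changed at E12.5, and their part in the lower count was not tested.

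**Figure D3:**
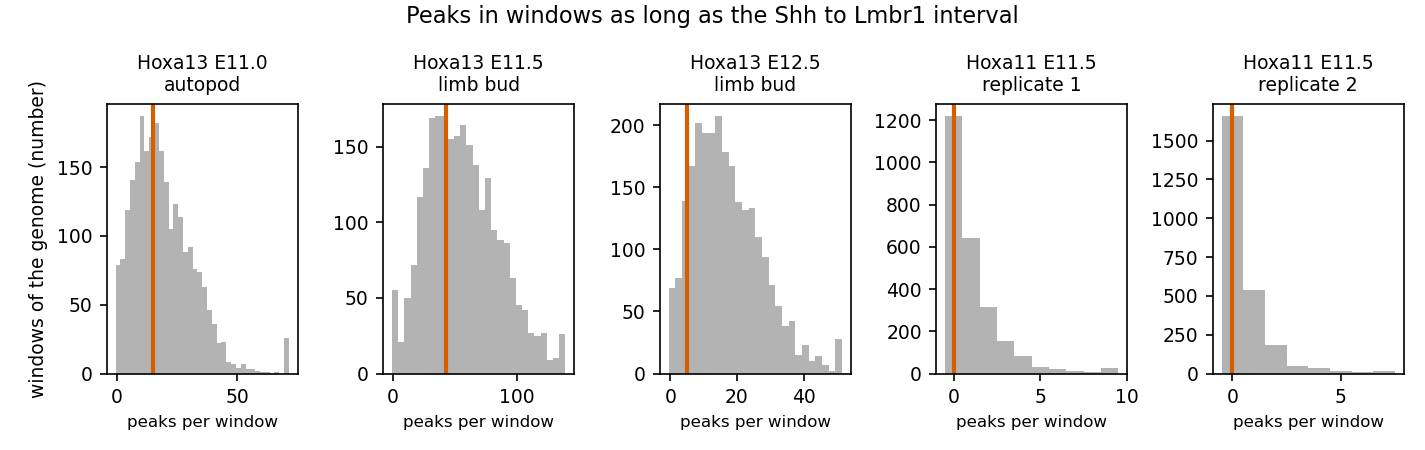
Histograms of the number of peaks in 2505 windows as long as the interval, 1 panel per library, with the count of the interval as an orange line; the last bar of a panel pools all windows beyond it. The line stands at 15, 43 and 5 peaks for Hoxa13 in stage order, where the medians are 17, 54 and 16, and at 0 for both Hoxa11 libraries.

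Peak width was the only other value that the Hoxa13 lists carry. The interval's peaks had a median width of 256 bp at E11.0 (range 188 to 490), beside 245 bp for the list. At E11.5 the median was 276 bp (203 to 517), beside 286 bp, and at E12.5 it was 221 bp (120 to 255), beside 154 bp. Of the E12.5 peaks, the 3 that met another stage were 221, 231 and 255 bp wide, and the other 2 were 120 and 135 bp, beside medians of 163 and 135 bp for such peaks of the whole list.

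Within the interval, recurrent peaks had the larger median width at both later stages but not at E11.0. This contrast rests on few peaks at E11.0 and E12.5, and over the whole lists recurrent peaks were the wider ones at every stage. At E11.5 the 10 peaks that met another stage had a median width of 414.5 bp, against 263 bp for the 33 that met none. The whole list gave 341 and 267 bp. At E11.0 the medians were 254 bp for the 9 that met another stage and 262.5 bp for the 6 that met none, whereas the whole list gave 262 and 224 bp. Overlap comes more easily to wide peaks, so width and recurrence are not independent.

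The widest peaks of the interval were partly at its recurrent sites. At E11.0 they were 490 bp (28702269 to 28702758), 473 bp at the site 145 kb from the enhancer position, 342 bp (29506861 to 29507202), 323 bp at the site 10.6 kb from it, and 282 bp (29370348 to 29370629). The 342 and 282 bp peaks met no other stage. At E11.5 the 517 bp peak and one of 450 bp, from 29112783 to 29113232 in the sparse middle stretch, met no other stage. Those of 506 bp (28717972 to 28718477), 493 bp (29650361 to 29650853) and 436 bp (29629199 to 29629634) were recurrent. The 2 E11.5 peaks nearest the enhancer position, at 300 and 245 bp, and both peaks near Shh, at 221 bp, were not among the widest 44699 of their list, in which the narrowest was 331 bp. Most E11.5 peaks fall outside that set, as the list holds 143460, and only 14 of the 43 in the interval are within it. The 300 and 245 bp peaks stood at the 56.4th and 28.5th percentiles of widths of the list.

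**Figure D4:**
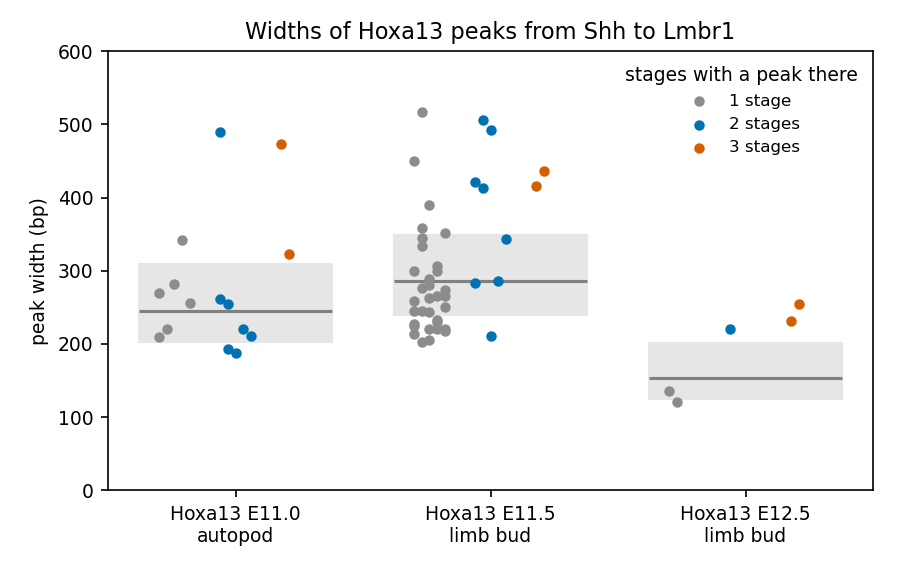
Each point is the width in bp of 1 Hoxa13 peak of the interval, by stage, coloured by the number of stages with an overlapping peak; the grey box spans the quartiles of all peaks of that list and the line is its median. At E11.5 the recurrent peaks reach 506 bp with a median of 414.5 bp, above the 263 bp of those seen at that stage alone.

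Hoxa11 had no peak in the interval in replicate 1 (of 2953 peaks) or replicate 2 (of 1647). Of all windows of this length, 48.6% held no peak of replicate 1, and 66.1% held none of replicate 2, windows without a peak in any list included. The lists hold only peaks that passed the caller, so weaker Hoxa11 signal at the enhancer or at Shh was not measured. The stretch without Hoxa11 peaks that holds Shh measured 6.60 Mb in replicate 1 and 9.11 Mb in replicate 2, each running up to the same site beyond Lmbr1. Gaps between neighbouring peaks at least this long took up 13.5% of the genome's length in replicate 1 and 18.8% in replicate 2.

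The nearest Hoxa11 site lay just past the end of the interval. Replicate 1 had a peak from 29794756 to 29795026 and replicate 2 one from 29794803 to 29795069, 155 kb from the enhancer position on the side away from Shh. In replicate 2 its fold enrichment, as the authors deposited it, was 4.70 and its −log10 q-value 19.2. Hoxa13 at E11.5 had a peak at the same place, from 29794763 to 29795086, and the other Hoxa13 lists had none. Such overlap is common over the whole lists. Of all peaks of replicates 1 and 2, 71.0 and 70.8% met an E11.5 Hoxa13 peak. The shares were 23.9 and 30.5% for E11.0, and 48.8 and 55.7% for E12.5. One input library serves both the E11.5 Hoxa13 library and Hoxa11 replicate 1, by its title, and replicate 2 has its own.

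The edges of the interval cut through no peak. At E11.5 the last peak outside the lower edge started 2.87 kb before it and the next beyond the upper edge 6.49 kb after it. The nearest outside peaks of E11.0 and E12.5 were 347 and 57.1 kb before the lower edge and 63.6 and 63.7 kb after the upper one.

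Peak sequences could not be read without a genome of build mm9. In the RefSeq promoter of Lmbr1 (GRCm38, from upstream of the start to just after it), neither CNATAAA nor TCGTAAA, letter patterns of posterior Hox proteins, occurred on either strand, and the same held for Rnf32. No RefSeq promoter of Shh was at hand, so it was not examined. Of all 32851 promoters in that table, 10.9% held the first pattern and 0.597% the second. The missing letters say nothing about binding of Hoxa13, and these promoters were not matched to any peak.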

How the data were processed

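ChIP-seq peak lists of 5 libraries were used, 1 file per library. The notes on processing by the submitters name CASAVA 1.4, MACS2 2.1.0 and Bowtie2 2.2.2, with build mm9. Thresholds, handling of duplicates and use of input are not given in the sources used here. Of the lists, 4 hold 3 columns as deposited: chromosome, start and end. That of Hoxa11 replicate 2 has 10, among them a deposited score, a fold enrichment ratio over the caller's background, and −log10 values of p and q, all by the authors. The score equals 10 times −log10 q, rounded down, in 100% of rows. A list shows only what passed the caller, and read depth is unknown, so a count of peaks is not a level of binding.

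Positions are 1-based on mm9. Peaks met when they shared at least 1 bp. Chromosome lengths were taken as the largest peak end in any list. Overlap code was tested on simulated intervals and against bedtools. No test between stages was run, as each Hoxa13 stage has 1 library. Named peaks were the sites of several stages, the 5 widest of each Hoxa13 list and those nearest either position. The design's gene counts were not made, as the gene table is of GRCm38, and the motif count was made in promoters only. The interval, lists and descriptions were chosen with earlier results of these data known. The bins of 150 kb, the stage ratios, the tight groups, the Hoxa11 gaps and the site count at equal list length were added after the positions were seen. Python 3.11.15, pandas 2.3.3, numpy 2.4.6 and scipy 1.17.1 were used.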

Additional observations from a re-analysis of the deposited data

How the results depend on the processing

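Of 59 recomputed values for Hoxa13, 47 stayed within their counting interval, or within 1.5 times for counts. Among the 47 are 3 mean widths, which had only to lie within a standard deviation of the median, a limit that can hardly be missed. The cut to 44699 peaks leaves the E12.5 list whole, so its count could not change. Such values say nothing about stability. A further 32 concern Hoxa11, whose counts in the interval are 0, among them the sites without either replicate, and these say nothing about stability. The other 12 of Hoxa13 came from 2 kinds of setting. When lists were cut to their 44699 widest peaks, E11.5 kept 14 of its 43 peaks in the interval. Of these, 42.9% met E11.0 and 21.4% met E12.5, in place of 20.9 and 6.98%. Over the whole E11.5 list the same cut took the share that met E11.0 from 20.5 to 35.7%. The share that met E12.5 went from 21.7 to 42.0%. All sites then numbered 25, those of E11.0 and E11.5 numbered 4 and those of E11.5 alone 7, a count added after seeing the data. These falls follow from the setting, which cuts the E11.5 list from 143460 peaks. Within 50 kb of the Shh position the E11.0, E11.5 and E12.5 lists had 2, 4 and 1 peaks, and within 10 kb of the enhancer position 0, 3 and 0, as a narrower or wider range takes in fewer or more peaks. Reciprocal overlap of 50% took the E11.0 peaks that met E12.5 from 13.3 to 6.67% and the E12.5 peaks that met E11.0 from 2 of 5 to 1 of 5, a loss that the wide counting intervals take in. The pair lost, 473 and 231 bp wide, differed too much in width to meet that setting wherever it lay. The other shares at reciprocal overlap, and the values with midpoints within 500 bp, with merging across 500 bp, with chromosome 5 as background and with membership by any overlap, stayed within those limits. Absence from the E11.0 and E12.5 lists cannot be told apart from insufficient depth.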
